A study of Mus musculus with 8 samples.

Results

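Astrocytes are the star-shaped glial cells that fill the space between neurons, and 9 genes that build their cytoskeleton, channels and junctions or mark their identity were examined in the brains of mice given methanol: Gfap, Vim, Aqp4, Gja1, Gjb6, S100b, Sox9, Atp1b2 and Fgfr3. Members were all probes whose annotated gene symbol or a synonym of it was one of these names, which gave 9 probes for 8 of the 9 genes, out of 25697 probes on the array. Gjb6, which encodes a further connexin of astrocytes, had no probe in the annotation used here and was not analysed. Fgfr3 had 2 probes and each of the other genes had 1. The tissue was mouse brain, and RNA was hybridised to Illumina MouseRef-8 BeadChips, on which each transcript is captured by short probes carried on beads and read as a fluorescence intensity. The sample labels describe 2 groups of 4: methanol at 120 mg/kg in a volume of 350 µl, and the same volume of normal saline, both for 2 h. They do not name the route, and they do not say whether each array holds the RNA of a single mouse, so that p-values measure the spread between these arrays, which may be partly technical. The study's methods describe male BALB/c mice, an inbred strain, whose whole brains were taken after breathing the vapour of methanol or of water, for a shorter time and in larger groups than the labels give. The labels are followed here.

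An astrocyte reaches with fine processes to synapses and with broad endfeet to blood vessels. Intermediate filaments give the processes their stiffness, gap junctions join the cells into a network through which ions and metabolites pass, water channels are packed into the endfeet, and a sodium pump helps to clear the potassium that active neurons release. When brain tissue is injured, astrocytes raise their filament genes, and this state is called reactive. In a homogenate of whole brain, fewer astrocytes and less RNA per astrocyte cannot be told apart.

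Values are log2 intensities after background correction and quantile normalization, and a change is the methanol mean minus the saline mean on that scale. A probe counted as detected on an array when its detection p-value, which sets the probe against negative control beads, was under 0.05. Between 11291 and 12366 probes were detected per methanol array, and between 11855 and 12199 per saline array. The test was run with limma, which fits linear models with moderated variances, on the 11938 probes that 4 or more of the 8 arrays detected, and p-values were adjusted over all of them by the Benjamini-Hochberg method. Correlations of log2 intensity were 0.981 to 0.989 between arrays of a group and 0.973 to 0.984 between arrays of different groups. Although the methods describe male mice, Xist, the RNA that coats the inactive X chromosome of females, was detected on 8 of 8 arrays. It averaged 8.86 ± 0.141 on the methanol arrays and 8.94 ± 0.058 on the saline arrays (SD, n = 4 each). Of the Y-linked genes checked, Uty was detected on 4 of 8 arrays, with means of 5.52 in methanol and 5.28 in saline. Eif2s3y and Kdm5d were detected on too few arrays to be tested, and Ddx3y had no probe.

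Of the 8 astrocyte probes tested, all detected on 8 of 8 arrays, 0 passed the test at an adjusted p under 0.05, where 5.6% of all tested probes did (3.12% higher and 2.49% lower in methanol, and 5.92% of all genes in either direction when each is read from its brightest probe). At an unadjusted p under 0.05 there were 2, S100b and Fgfr3, where 20.7% of all tested probes reached that level. The methanol and saline values overlapped for each of the 8, so that 0 were without overlap, while 12.4% of all tested probes were. The log2 change was above 0 for 4 of the genes and below 0 for the other 4, from -0.29 for Sox9 to 0.53 for S100b, with a median of -0.007 beside -0.002 over all tested probes. The mean of the 8 genes on an array lay between 8.18 and 8.33 in the methanol group and between 8.05 and 8.43 in the saline group, and the saline range covered the methanol range.

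**Figure D1:**
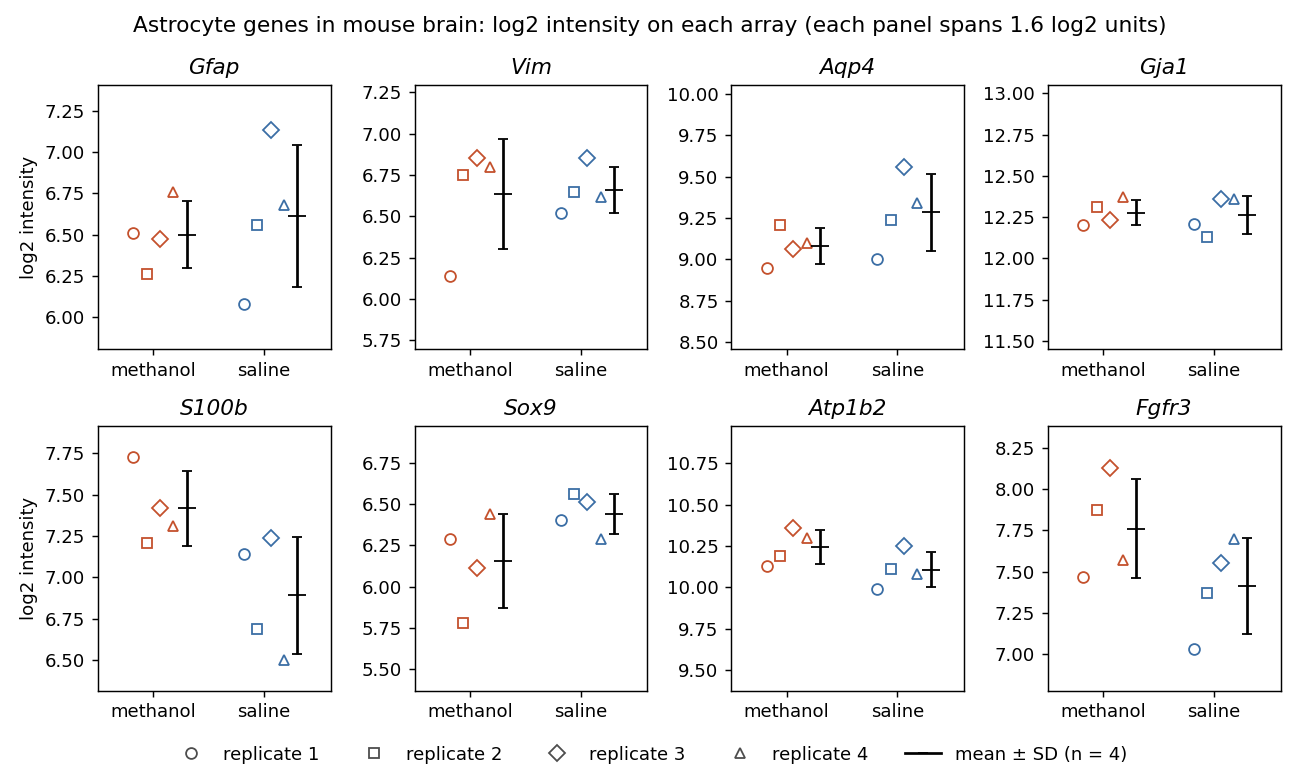
Log2 intensity of the 8 measured astrocyte genes on each array, with methanol arrays on the left and saline arrays on the right of each panel. Symbols mark the replicate number, bars give the mean ± SD of 4 arrays, and each vertical axis spans 1.6 log2 units. The groups overlap in every panel; S100b comes closest to separation, with 3 of the 4 methanol arrays above the highest saline array.

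Gfap, the glial fibrillary acidic protein, is the main intermediate filament of astrocytes and the usual stain for reactive ones. Its probe (ILMN_1214715) had log2 intensities of 6.51, 6.26, 6.47 and 6.76 on methanol replicates 1 to 4, against 6.08, 6.56, 7.13 and 6.68 on saline replicates 1 to 4. The 4 methanol values fell within the span of the saline values, which were more spread out (SD 0.203 in methanol and 0.434 in saline). The means were 6.50 and 6.61, and the change was -0.11 (SE 0.188, 95% interval -0.52 to 0.29, limma adjusted p = 0.793, exact permutation p = 0.686, two-sided). The probe was dim, on average 1.12 log2 units above the lowest signal detected on an array. Among all tested probes 93.9% had a smaller spread within groups than Gfap. The interval reaches a fold of 0.699 below and 1.22 above, and these arrays do not exclude a change of Gfap within these bounds.

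Vim, vimentin, is the filament protein that astrocytes share with endothelium, meninges and ependyma. On the methanol arrays its probe (ILMN_2451022) read 6.14, 6.75, 6.85 and 6.80, against 6.52, 6.65, 6.85 and 6.62 on the saline arrays. Methanol replicate 1 was the lowest of the 8, and the other 3 methanol arrays lay above the saline mean of 6.66. The Vim probe was also dim, on average 1.21 log2 units above the lowest signal detected on an array. The change was -0.03 (SE 0.157, 95% interval -0.36 to 0.31, adjusted p = 0.951, exact permutation p = 0.914). It was 0.14 without methanol replicate 1, and without saline replicate 3 it was 0.04 for Vim and 0.06 for Gfap, so that the sign of the change of both filament genes turned with single arrays.

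Aqp4 encodes aquaporin-4, the water channel of the endfeet. Its probe (ILMN_2757232) gave 8.95, 9.21, 9.06 and 9.10 in the methanol group, against 9.0, 9.24, 9.56 and 9.34 in the saline group. All 4 methanol values lay below the saline mean of 9.29, but only methanol replicate 1 was below the lowest saline array. The change was -0.20 (SE 0.109, 95% interval -0.44 to 0.03, unadjusted p = 0.0834, adjusted p = 0.314, exact permutation p = 0.171). Without saline replicate 1, the lowest of its group, the values no longer overlapped, and the adjusted p still missed the threshold.

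Gja1 encodes connexin 43, the main gap junction protein of astrocytes. The methanol arrays read 12.20, 12.31, 12.23 and 12.37 with its probe (ILMN_1244291), against 12.21, 12.13, 12.36 and 12.36 on the saline arrays. The 8 values were interleaved, and only 13.4% of all tested probes had a smaller spread within groups. The change of 0.01 (SE 0.0759, adjusted p = 0.948, exact permutation p = 0.83) had a 95% interval of -0.15 to 0.18, that is a fold from 0.902 to 1.13. This interval was the narrowest of the 8 genes. Its sign turned when methanol replicate 4 (-0.02), saline replicate 1 (-0.01) or saline replicate 2 (-0.03) was left out.

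Atp1b2 encodes the beta 2 subunit of the Na,K-ATPase, the sodium pump, which in glia was also described as an adhesion molecule. Its probe (ILMN_2602902) read 10.13, 10.19, 10.36 and 10.30 on the methanol arrays, against 9.99, 10.11, 10.25 and 10.08 on the saline arrays. All 4 methanol values were above the saline mean of 10.11, and 2 were above the highest saline value. The change was 0.14 (SE 0.0812, 95% interval -0.03 to 0.31, unadjusted p = 0.107, adjusted p = 0.358, exact permutation p = 0.143). Without saline replicate 3 the groups were apart, with no call in the test.

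S100b encodes a small calcium-binding protein of astrocytes that is also secreted, and it gave the largest change of the 8 genes. Its probe (ILMN_2634742) had 7.73, 7.21, 7.42 and 7.31 on the methanol arrays, against 7.14, 6.69, 7.24 and 6.50 on the saline arrays. The overlap came from a single pair of arrays, methanol replicate 2 and saline replicate 3. The means were 7.42 ± 0.225 in the methanol group and 6.89 ± 0.353 in the saline group (SD, n = 4 each), a change of 0.53 (SE 0.165, 95% interval 0.17 to 0.88), or 1.44-fold with an interval of 1.13 to 1.84. The unadjusted p was 0.00646, the adjusted p was 0.0813 and the exact permutation p was 0.0571, where 0.0286 is the smallest that 4 against 4 arrays allow. S100b passed the test without saline replicate 1 (0.61, adjusted p = 0.0440). Over all 18 alternative settings its change stayed between 0.25 and 0.64, with adjusted p between 0.0145 and 0.216.

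Sox9 is a transcription factor that sets the glial fate and is kept by astrocytes in the adult brain. Its probe (ILMN_3007428) had 6.29, 5.78, 6.11 and 6.44 in the methanol group, against 6.40, 6.56, 6.51 and 6.29 in the saline group. All 4 methanol values lay below the saline mean, and 2 lay below the lowest saline array. The change was -0.29 (SE 0.151, 95% interval -0.61 to 0.04, unadjusted p = 0.0774, adjusted p = 0.302, exact permutation p = 0.143). The probe was dim, on average 0.86 log2 units above the lowest signal detected on an array.

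Fgfr3 is a receptor tyrosine kinase for fibroblast growth factors that astrocytes and their progenitors carry. The probe that was detected (ILMN_1257208) read 7.47, 7.87, 8.13 and 7.57 on the methanol arrays, against 7.03, 7.37, 7.55 and 7.70 on the saline arrays. The methanol values were all above the saline mean of 7.41, and 2 were above the highest saline array. The change was 0.35 (SE 0.160, 95% interval 0.01 to 0.69, unadjusted p = 0.0461, adjusted p = 0.232, exact permutation p = 0.171). The other probe (ILMN_2590766) was detected on 0 of 8 arrays, with 5.02 to 5.28 in the methanol group and 5.08 to 5.38 in the saline group, and was not tested. It is not well above background in either group, so that no change can be read from it and it does not bear on the first probe.

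**Figure D2:**
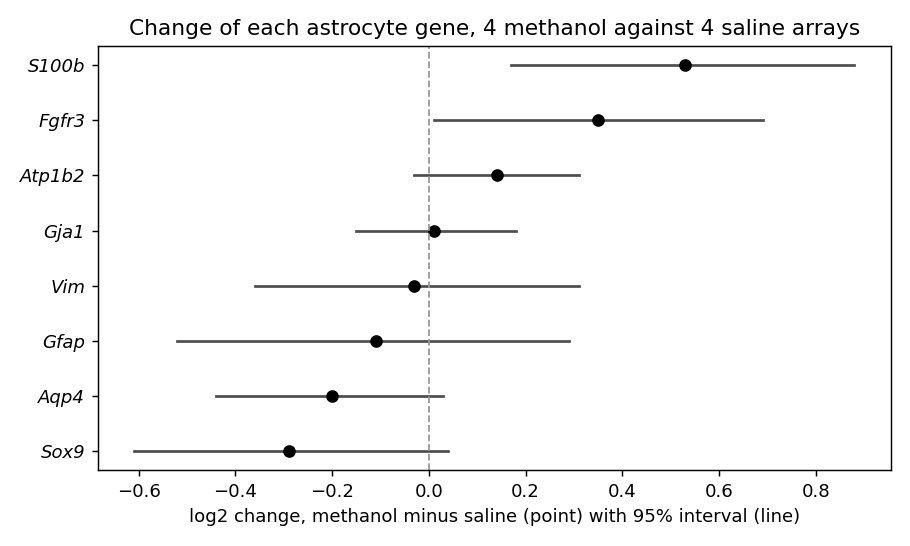
Log2 change of each measured astrocyte gene, methanol minus saline (points), with the 95% interval from limma (lines). The intervals of S100b (0.17 to 0.88) and Fgfr3 (0.01 to 0.69) lie above 0 before adjustment, and the other 6 include 0.

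The size of the change of the dimmer astrocyte probes depended on the background that remained in the values. Among these, S100b and Fgfr3 were of middling brightness, with 45.3% and 53.3% of all tested probes below them. In the intensity table that the authors normalized between arrays, which keeps the background, the same 4 against 4 arrays gave changes of 0.25 for S100b, 0.20 for Fgfr3, -0.10 for Sox9 and -0.05 for Gfap, each clearly closer to 0 than after background correction. For the bright probes the value hardly moved, with 0.12 for Atp1b2, -0.16 for Aqp4 and 0.01 for Gja1. The direction was the same for all 8 genes on both tables.

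**Figure D3:**
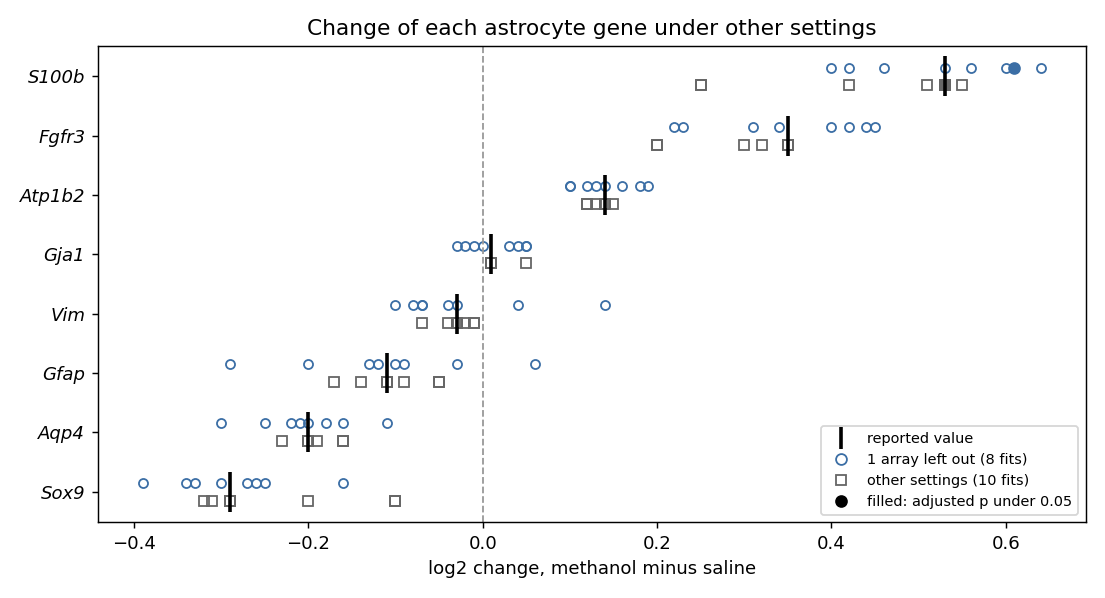
Log2 change of each measured astrocyte gene (methanol minus saline) as reported (bar), with 1 array left out (8 fits, circles) and under 10 other settings (squares). Filled symbols passed the test; they occur for S100b alone, and the values of Gja1, Vim and Gfap lie on both sides of 0.

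The astrocyte genes varied together in part from array to array. After subtraction of the group means, 19 of the 28 pairs of genes had a Pearson r above 0 over the 8 arrays, with a median of 0.36. The same share among pairs of other genes was not computed. These correlations are descriptions, since all points share the arrays and their normalization. Vim and Atp1b2 were the most alike (r = 0.79, Spearman's rho 0.88), and r was 0.73 without the 2 arrays farthest from the median of Vim. Aqp4 and Gja1 had r = 0.67 (rho 0.79), and 0.68 without the 2 farthest arrays. The r of 0.75 between Gfap and Aqp4 (rho 0.55) rested on such arrays, since it was -0.28 without them. S100b (r = -0.14) and Sox9 (r = 0.03) did not follow the mean of the other members, which Atp1b2 (0.89), Gfap (0.82) and Aqp4 (0.74) followed. Of 8520 other genes, Rbm47 (r = 0.98), Ggact (0.979) and Lyz1 (0.977) were the most like the mean of the 8 astrocyte genes. They are the highest of a wide search over 8 arrays, which picks high values, so no link is read from them. The change of each of them between the groups was within -0.10 to -0.07 and did not pass the test.

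Other genes that astrocytes express strongly did include genes that rose. Of 43 such genes listed, 41 had a probe and 35 were tested, and 4 were higher in methanol, 0 were lower and 31 did not pass. The share of 11.4% higher stands beside 3.4% of all 8528 genes read from their brightest probe. The change was above 0 for 25 of the 35, with a median of 0.09. The mean level of the list was 9.42 to 9.50 on the methanol arrays and 9.24 to 9.40 on the saline arrays. These levels include Slc25a18, which rose by 1.89, and were not computed without it, so no separation of the other genes is read from them. This list was chosen with results of these data known, and its share is no independent evidence.

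Slc25a18, a mitochondrial carrier of glutamate, is among the genes the study lists as raised by both methanol and wounded-leaf vapour. The study names the series used here as its brain array data, so this listing is no independent evidence. The leaf vapour is not among the groups examined here. Slc25a18 read 10.75, 11.25, 11.22 and 11.05 in the methanol group, against 9.13, 9.20, 9.18 and 9.23 in the saline group, a rise of 1.89 (SE 0.10, adjusted p = 2.9e-08). Without it the median of the list was 0.08. Glul, glutamine synthetase, which turns the glutamate taken up from synapses into glutamine, read 9.35, 9.21, 8.88 and 9.40 in methanol, against 8.73, 8.44, 8.55 and 8.60 in saline (0.63, SE 0.112, adjusted p = 0.00407). Fam107a, an actin-associated protein, read 11.66, 11.54, 11.41 and 11.35 in methanol, against 11.17, 10.79, 10.98 and 10.75 in saline (0.57, SE 0.0992, adjusted p = 0.00359). For these 3 genes every methanol array was above every saline array. In the list 5 of the 35 tested genes were without overlap, beside 12.8% of all genes. Aldoc (0.21, adjusted p = 0.0794) and Aldh1l1 (0.25, adjusted p = 0.213) were among them but did not pass. Htra1, a secreted serine protease, rose by 0.36 (SE 0.0894, adjusted p = 0.0289), and by 0.37 on its other probe (adjusted p = 0.0173), although its groups overlapped. With arrays scaled only to the same median, 2 of the 4 calls were lost, those of Fam107a (0.57, adjusted p = 0.0552) and Htra1 (0.37, adjusted p = 0.184). The call of Htra1 was also lost on leaving out methanol replicate 2, 3 or 4 or saline replicate 2, 3 or 4 (0.32 to 0.36, adjusted p 0.0621 to 0.0912).

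Of 17 genes of the reactive state, 16 had a probe and 7 were tested, 0 rose and 1 fell, with a median of -0.12. Of all genes, 3.4% were called higher and 2.52% lower. The gene that fell was Serpina3n, a secreted inhibitor of serine proteases, with 8.13, 8.02, 8.99 and 8.57 on the methanol arrays, against 10.45, 10.67, 10.65 and 10.53 on the saline arrays (-2.15, SE 0.163, adjusted p = 1.2e-06). The study lists this gene as lowered by both methanol and wounded-leaf vapour, of which the leaf vapour is not among the groups examined here. Since the study names this series as its brain array data, that listing is no independent evidence. The mean level of the 7 genes was 6.56 to 6.78 in methanol and 7.02 to 7.12 in saline. Without Serpina3n, a choice made after the values were seen, the level of the other 6 was 6.27 to 6.49 in methanol and 6.43 to 6.56 in saline, so that the groups overlapped, and the median was again -0.12. In all, 9 of the 16 genes with a probe were too dim to be tested.

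**Figure D4:**
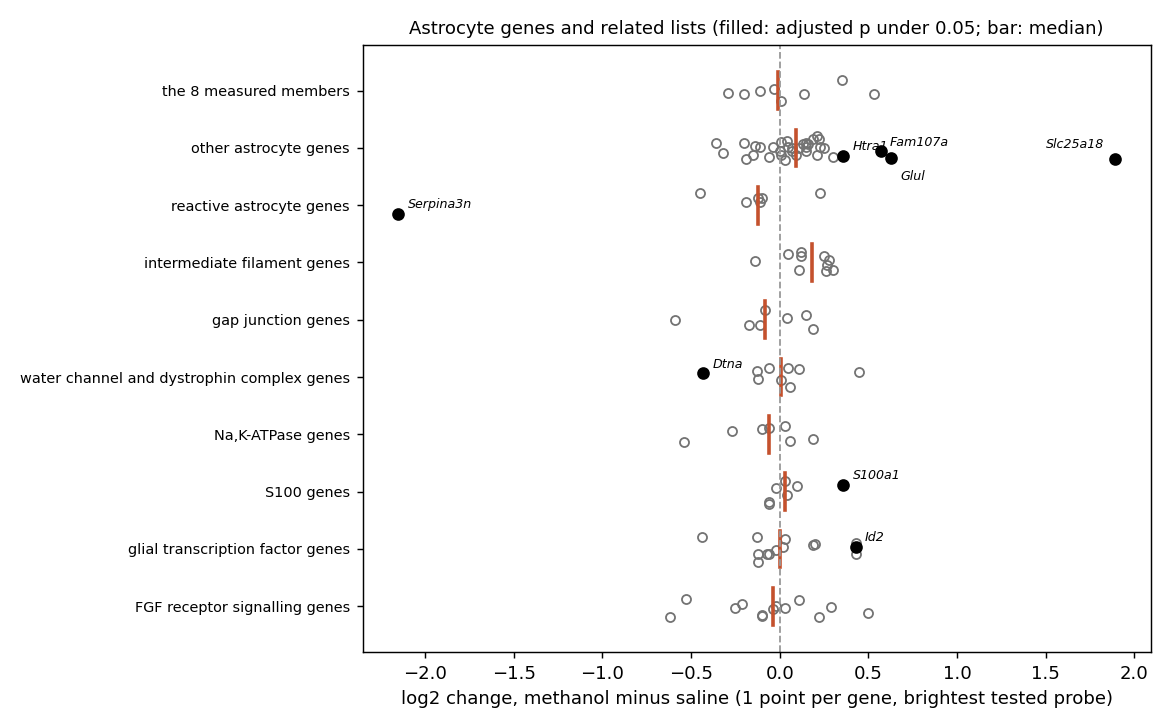
Log2 change, methanol minus saline, of each tested gene in the 8 measured astrocyte members and in 9 related lists (1 point per gene, brightest probe), with a bar at the median of each list. Filled points passed the test and are named; 0 of the members are filled, and Slc25a18 (1.89) and Serpina3n (-2.15) lie far from the other points.

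The families of the members were read in the same way, beside 3.4% of all genes called higher and 2.52% called lower. Among 10 tested genes of intermediate filaments and their linkers, the relatives of Gfap and Vim, 0 passed, with a median of 0.19. The largest changes on the brightest probes were those of Nefh (0.30, adjusted p = 0.225), a neurofilament, and Lmna (0.28, adjusted p = 0.107), lamin A/C of the nucleus. The other probes of Lmna gave 0.29, 0.21, 0.18 and -0.16, and did not pass. In this list 2 genes were without overlap, Lmna and Dst (0.27, adjusted p = 0.0768), beside 12.8% of all genes. Among 7 tested connexins, pannexins and their partners, 0 passed. Gjb2, a connexin which meningeal cells carry too, changed by -0.59 (SE 0.188, adjusted p = 0.0859) on its brighter probe and by -0.30 on the other, and Tjp1, a scaffold of junctions, by 0.19 (adjusted p = 0.453). Gjb2 passed without saline replicate 2 (-0.74, adjusted p = 0.0451).

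Of the water channels and the dystrophin complex that anchors aquaporin-4 at the endfeet, 9 genes were tested and 1 passed. It was Dtna, dystrobrevin alpha, which fell by 0.43 on its brightest probe (SE 0.0963, adjusted p = 0.0192). Its 4 tested probes disagreed, with -0.89 (adjusted p = 0.00147) on another probe and 0.27 (adjusted p = 0.208) and 0.12 (adjusted p = 0.773) on the remaining ones, so that no direction can be given for the gene. The call of the brightest probe was lost without methanol replicate 1 (-0.37), saline replicate 2 (-0.42) or saline replicate 3 (-0.39). Among 7 tested genes of the sodium pump other than Atp1b2, its beta subunits and regulators, 0 passed. The largest changes on the brightest probes were in FXYD proteins, which modulate the pump. They were -0.54 for Fxyd6 (adjusted p = 0.0747) and -0.27 for Fxyd5 (adjusted p = 0.324). The other probes of Fxyd5 gave -0.31 (adjusted p = 0.355) and -0.59 (adjusted p = 0.0648). Fxyd6 passed without methanol replicate 4 (-0.68) or saline replicate 1 (-0.66).

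Beside S100b, 7 further genes of the S100 family of calcium-binding proteins were tested and 1 rose. It was S100a1, which had 9.71, 9.73, 9.49 and 9.69 on the methanol arrays, against 9.38, 9.14, 9.31 and 9.36 on the saline arrays (0.36, SE 0.0856, adjusted p = 0.0263). The groups did not overlap, but the call was lost without methanol replicate 1, 2 or 4 or saline replicate 2 or 3 (0.30 to 0.36). Beside Sox9, 14 transcription factors and inhibitors of the glial lineage were tested and 1 rose, Id2, an inhibitor of basic helix-loop-helix factors, with 9.96, 9.53, 9.63 and 9.76 in methanol, against 9.36, 9.28, 9.31 and 9.21 in saline (0.43, SE 0.0936, adjusted p = 0.0157). Its other probe gave 0.08 (adjusted p = 0.741), and the call was lost without saline replicate 4 (0.40, adjusted p = 0.0521). Beside Fgfr3, 13 receptors, ligands and targets of fibroblast growth factor signalling were tested and 0 passed, the largest changes being those of Etv1, a transcription factor (-0.62, adjusted p = 0.0572), and Fgfrl1, a receptor that lacks a kinase domain (-0.53, adjusted p = 0.123). Etv1 passed without methanol replicate 3 (-0.77) or saline replicate 1 (-0.74).

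Some markers of other cell types differed between the groups or between single arrays. The counts below stand beside 3.4% of all genes called higher and 2.52% called lower. Of 5 tested red blood cell genes 4 were lower in methanol and 0 higher, with a median change of -1.79, and their mean level was 7.02 to 7.38 on the methanol arrays and 8.56 to 8.80 on the saline arrays. Of 7 tested markers of meningeal fibroblasts 0 passed, with a median of -0.46, and their mean level was 7.86, 8.52, 8.37 and 8.53 on the methanol arrays, against 8.24, 8.40, 9.16 and 9.29 on the saline arrays. Saline replicates 3 and 4, the highest of these, were also the highest 2 saline arrays for 4 of the 8 astrocyte genes (Gfap, Aqp4, Gja1 and Fgfr3) and not for the other 4 (Vim, S100b, Sox9 and Atp1b2), and saline replicate 4 was the lowest saline array for S100b and Sox9. Of 4 tested choroid plexus markers 1 was lower (median of the 4 -1.10), with a mean level of 6.26 to 6.93 in methanol and 6.22 to 9.30 in saline. Of 6 tested ependymal markers Rsph1 and Spag6l were lower and the other 4, at -0.01 to 0.08, did not pass (median of the 6 0.02), with a mean level of 6.15 to 6.45 in methanol and 6.43 to 6.69 in saline. Of 8 tested oligodendrocyte markers 2 were higher and 1 lower (median of the 8 0.15), with 9.85 to 10.59 in methanol and 9.61 to 10.24 in saline. The calls of the choroid plexus marker Kl, of Spag6l and of the oligodendrocyte markers Mal and Opalin were lost under some other settings, given below. The part of these other cell types in the values of the astrocyte genes, several of which they share, was not tested.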

How the data were processed

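Brain RNA of 4 methanol and 4 saline samples was measured on Illumina MouseRef-8 BeadChips. The authors scanned the arrays and used GenomeStudio, with cubic spline normalization named in the methods. They deposited 2 tables of intensity with background kept: one, titled as non-normalized, had the same sorted values in each column and was therefore already normalized, and the other was un-normalized (array medians 179.5 to 193.7 in methanol and 175.6 to 195.8 in saline) and was the starting point here. The deposited detection p-value of each probe and array stood in the normalized table. The genome build is not given in the sources used here, so no coordinates or sequences are given. No column of other samples was present.

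Background was removed by normexp (offset 16), with the negative controls inferred through the detection p-values, and arrays were then quantile normalized and put on the log2 scale with neqc in limma 3.58.1 (R 4.3.3). Probes detected at p under 0.05 on at least 4 of 8 arrays (11938) were fitted with lmFit and eBayes with a variance trend, and p-values, two-sided, were adjusted by the Benjamini-Hochberg method over all of them. Single probes were also compared by an exact permutation test over 70 splits of the arrays. Of 25697 probes, 23978 had 1 gene symbol in the platform annotation and could be named. In lists the brightest tested probe stood for a gene, and for each astrocyte member every probe is given. From each related list all genes past the test were named, or else the 2 with the largest change; of cell type markers, genes past the test were named. The members, the lists and the tests were chosen with earlier results of these data known. The code was tested on simulated data.

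Alternatives were the deposited normalized table, median scaling, no background correction, an offset of 50, no filter on dim probes, detection on all 8 arrays, no variance trend, robust moderation, array weights, the replicate number as a block, and leaving out each array. The number of arrays limits the precision.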

Additional observations from a re-analysis of the deposited data

Results flagged for a closer look

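Within each group of 4 arrays, the gap between the highest or lowest array and its nearest neighbour was divided by the range of the group for each of the 9 astrocyte probes, 18 groups in all, and 2 were above the 95% limit of Dixon's test. Chance alone puts about 5% of groups past that limit. Vim on methanol replicate 1 (6.14, with the other methanol arrays at 6.75 to 6.85) had a ratio of 0.864. The Fgfr3 probe that was detected on 0 of 8 arrays had a ratio of 0.893 on methanol replicate 2 (5.02, with the others at 5.25 to 5.28).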

How the results depend on the processing

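Of the 8 astrocyte probes, 0 passed the test under 16 of 18 alternatives, and 1, S100b, passed with a replicate block and without saline replicate 1; leaving out single arrays gave 0 to 1 past the test and 0 to 2 without overlap (S100b without methanol replicate 2, Aqp4 without saline replicate 1, S100b and Atp1b2 without saline replicate 3). The changes of Aqp4 (-0.30 to -0.11), S100b (0.25 to 0.64), Sox9 (-0.39 to -0.10), Atp1b2 (0.10 to 0.19) and Fgfr3 (0.20 to 0.45) kept their direction under all 18. Those of Vim (0.14 without methanol replicate 1, 0.04 without saline replicate 3), Gja1 (-0.02 without methanol replicate 4, -0.01 and -0.03 without saline replicates 1 and 2) and Gfap (0.06 without saline replicate 3) turned, with ranges on leaving out single arrays of -0.10 to 0.14, -0.03 to 0.05 and -0.29 to 0.06; the cause was not tested. Of all probes, 669 passed (372 higher, 297 lower), against 329 with median scaling (161 higher, 168 lower), 453 without a variance trend and 358 to 893 on leaving out single arrays (204 to 465 higher, 145 to 428 lower). Of the other astrocyte genes 4 passed, 2 with median scaling and 3 to 4 on leaving out single arrays. Of the related genes, Dtna (-0.44), S100a1 (0.35) and Id2 (0.43) lost their calls with median scaling, and Htra1, S100a1 and Id2 without a variance trend, while Etv1 passed with median scaling (-0.64), robust moderation or array weights and Fxyd6 with array weights (-0.58). On the normalized table, Dtna (-0.25), Gjb2 (-0.31), Etv1 (-0.26), Fgfrl1 (-0.17), Nefh (0.16), Tjp1 (0.11) and Fxyd5 (-0.14) had smaller changes on the same side of the threshold. After subtraction of the group means, same-numbered methanol and saline arrays had r = 0.185, -0.109, -0.013 and 0.25. Arrays with different numbers had r from -0.224 to 0.196. The labels do not say whether the numbers pair the arrays, and so few values cannot decide it. The replicate block gave 960 calls (477 higher, 483 lower) and S100b at 0.53 (adjusted p = 0.0145), and Gjb2, Fxyd6 and Etv1 also passed with it. Dim probes (Sox9, Gfap, Vim) lie close to background, where small changes are not detectable.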

Other observations

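Of 55 tested marker genes of other cells, 3 were higher in methanol and 9 lower, that is 21.8% called, beside 5.92% of all 8528 genes (3.4% higher and 2.52% lower). The lists were chosen with results of these data known, and 7 of the 12 passed under every alternative in which they were tested. Cldn11, a tight junction protein of myelin, had 13.11, 12.59, 12.53 and 12.62 on the methanol arrays, against 12.26, 12.28, 11.98 and 11.84 on the saline arrays (0.62, SE 0.126, limma adjusted p = 0.0103). Slc2a1, which carries glucose across brain endothelium and into astrocytes, had 11.60, 11.77, 11.78 and 11.83 on the methanol arrays, against 11.24, 11.29, 11.19 and 11.11 on the saline arrays (0.53, SE 0.0745, adjusted p = 0.000611). Rsph1, a protein of motile cilia, had 6.85, 6.88, 6.52 and 6.59 on the methanol arrays, against 7.75, 8.11, 8.28 and 7.87 on the saline arrays (-1.29, SE 0.133, adjusted p = 3.3e-05). For each of these 3 the groups did not overlap, as for 12.8% of all genes. The other 4 were the red blood cell genes Hba-a1 (-1.79), Hbb-b2 (-2.01), Hbb-bt (-1.47) and Alas2 (-1.80, detected on 2 of 4 methanol arrays). In the intensities normalized by the authors, which keep the background, the changes of the dimmer of these probes were smaller. They were -0.68 for Rsph1, -1.31 for Hbb-b2, -0.56 for Hbb-bt and -0.66 for Alas2, while Hba-a1 changed by -1.76.

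The remaining 5 calls were lost under 1 or more settings. Mal, a myelin proteolipid (0.60), lost its call without methanol replicate 1 or 4 or saline replicate 3 or 4, and Opalin, a myelin membrane protein (-0.82), without methanol replicate 2, 3 or 4 or saline replicate 2 or 3. For P2ry12, a receptor of microglia (-0.35), this was so without methanol replicate 1, 2 or 3 or saline replicate 2, 3 or 4, and for Spag6l, a protein of cilia (-0.54), without methanol replicate 1 or 3 or saline replicate 2, 3 or 4. Median scaling also ended the calls of Mal, P2ry12 and Spag6l, a fit with no variance trend those of Mal, Opalin and P2ry12, robust moderation that of Opalin and the absence of a filter that of Spag6l. Kl, the klotho protein of choroid plexus (-1.17), lost its call on leaving out methanol replicate 1, 2, 3 or 4 or saline replicate 2, on the normalized table or without background correction (-0.46 each), with an offset of 50 (-0.84), without a variance trend and with robust moderation. Without saline replicate 3 its change was -0.75 (adjusted p = 0.0462). The changes of Opalin and Spag6l were -0.38 and -0.21 on the normalized table, where both passed. No marker passed among 6 of neurons, 4 of oligodendrocyte precursors and 3 of pericytes and smooth muscle.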
